A study of Mus musculus with 4 samples.

Results

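The genes described here are 10 that mark the surface, or in the case of Cd68 the endosomal membrane, of Langerhans cells: Cd207, Epcam, Ly75, Itgax, Itgam, Adgre1, Cd24a, Sirpa, Ptprc and Cd68. They were taken by symbol, and all 10 were found among the 24441 symbols of the expression tables. Each was listed at 1 locus, and no other gene row overlapped it. RNA was sequenced from Langerhans cells sorted out of epidermal suspensions of mice aged 4 weeks. A wild-type group (WT) was set against mice in which a CD11c-Cre transgene acts on floxed Tfam alleles (CD11cCreTfamfl/fl, here Tfam cKO), with 2 libraries in each group. The labels give neither the markers used for sorting, nor the mice behind each library, nor whether WT mice carried Cre or floxed alleles, and p-values therefore measure only the spread between these libraries. Expression is in FPKM, a read density per transcript length and library size, so levels of different genes can be compared. All 10 genes passed the filter of a mean of at least 1 FPKM.

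Langerhans cells are the resident phagocytes and antigen-presenting cells of the epidermis. They derive from embryonic macrophage precursors, renew themselves in place, and combine features of macrophages, such as F4/80 on their surface, with those of dendritic cells, such as CD11c and migration to lymph nodes. Langerin, the product of Cd207, binds mannose-type sugars and forms Birbeck granules, the rod-shaped endosomal compartment that defines the cell. CD11c-Cre is driven by the promoter of Itgax, which is itself among the 10.

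The upstream sequences of 3 members are shown because they belong to the most abundant marker and to the 2 neighbouring integrin genes. Each gives the 250 bases before the start site, 5′ to 3′ on the gene's strand, from RefSeq with build GRCm38.p6. Capitals mark GAGGAA or its reverse complement TTCCTC, 1 form of the sequences recognised by ETS factors such as PU.1, the myeloid lineage factor. The shorter GGAA or TTCC within it was not marked or counted on its own, and it also stands in the Itgax window.
Cd207 (chr6:83677858-83678107, minus strand): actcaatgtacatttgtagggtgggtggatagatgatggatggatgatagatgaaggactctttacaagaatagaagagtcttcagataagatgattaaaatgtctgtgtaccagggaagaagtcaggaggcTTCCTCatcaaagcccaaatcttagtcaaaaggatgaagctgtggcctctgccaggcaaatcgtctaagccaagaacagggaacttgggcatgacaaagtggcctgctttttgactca
Itgam (chr7:128062390-128062639, plus strand): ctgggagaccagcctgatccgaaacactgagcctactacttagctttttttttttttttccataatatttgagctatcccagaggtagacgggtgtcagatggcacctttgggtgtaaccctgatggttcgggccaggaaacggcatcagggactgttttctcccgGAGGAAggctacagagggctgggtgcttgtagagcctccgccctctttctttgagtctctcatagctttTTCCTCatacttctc
Itgax (chr7:128129300-128129549, plus strand): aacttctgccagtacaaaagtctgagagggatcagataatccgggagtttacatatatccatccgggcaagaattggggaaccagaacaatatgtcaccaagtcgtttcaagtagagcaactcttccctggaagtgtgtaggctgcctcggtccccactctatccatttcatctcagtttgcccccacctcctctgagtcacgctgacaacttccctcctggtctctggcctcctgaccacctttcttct
Promoters were found for 7 of the 10 members. The Cd207 window held 1 match, the Itgam window 2 matches and the Itgax window 0. Among the members not shown, the Cd68 window held 1 match and the windows of Ly75 and Epcam 0. For Cd68 the bases just after the start were not found in a GENCODE M21 transcript of the gene, as they were for the others. Its window may therefore not lie at the start site. Ptprc held 1 match in its window further upstream and 0 in the other. Over all 32851 promoter windows of this length, 23.3% held a match. A match is a description of letters and not a binding site.

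The targeted gene did not separate the groups as deposited. Tfam was listed at 3.17 and 1.61 FPKM in the WT libraries and 1.65 and 1.53 in the Tfam cKO libraries. WT 2 thus did not stand above Tfam cKO 1. The total FPKM was 338783 in WT 2 and 395707 in Tfam cKO 1. Rescaling to equal totals therefore puts Tfam below WT in both Tfam cKO libraries, as 19.8% of all tested genes were. Its log2 fold change as deposited was −0.35 (limma adjusted p = 0.90). The ratio of the group means was 0.664, and log2(FPKM + 1) understates changes of genes this low. Every direction given here rests on the labels. The gene-level value can include reads outside the floxed part, which was not tested.

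Cd207 was by far the most abundant of the 10 genes. It was listed at 2098 and 1495 FPKM in the WT libraries 1 and 2 and at 1528 and 1374 FPKM in the Tfam cKO libraries 1 and 2. WT 1 stood above the other libraries, and WT 2 lay between the Tfam cKO libraries, so the groups overlapped. Only 13 symbols in WT 1 and 17 in WT 2 had a higher level, against 29 in Tfam cKO 1 and 31 in Tfam cKO 2. Cd207 alone made up 74.3% of the summed FPKM of the 10 genes in WT 1 and between 67.4% and 68.0% in the other libraries. The log2 fold change of Tfam cKO over WT was −0.29, with a 95% interval of −0.87 to 0.30 (limma adjusted p = 0.92). It was −0.05 without WT 1 and −0.53 without WT 2.

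**Figure D1:**
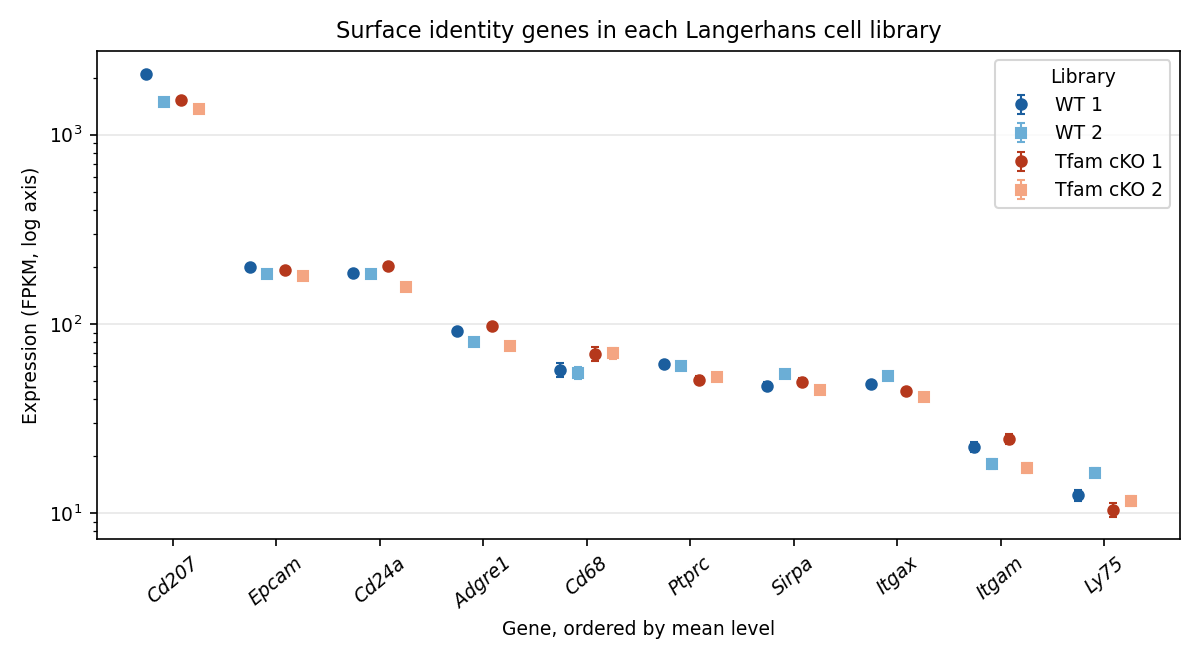
Level of the 10 genes in each library, in FPKM on a log axis, with Cufflinks' 95% interval as the error bar (error within a library only, often smaller than the symbol). Circles are libraries numbered 1, squares those numbered 2, WT in blue and Tfam cKO in red; Cd207 lies between 1374 and 2098 FPKM and every other gene at or below 202.3 FPKM.

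The adhesion molecules came next. Epcam encodes EpCAM, a homophilic adhesion molecule that epidermal Langerhans cells share with some epithelial cells and that separates them from most dermal dendritic cells. It was listed at 199.6 and 182.8 FPKM in the WT libraries and 192.4 and 179.6 in the Tfam cKO libraries. The coefficient of variation of Epcam over the 4 libraries was 4.85%, and 5.04% of the 4845 genes with a mean of at least 10 FPKM had a smaller one. Its log2 fold change was −0.04, with an interval from −0.47 to 0.39 (limma adjusted p = 0.99), which as a fold is 0.724 to 1.31. Cd24a, the heat-stable antigen, a small glycosylphosphatidylinositol-anchored sialoglycoprotein of immature leukocytes and epithelium, was listed at 184.9 and 182.7 FPKM in WT. In Tfam cKO it was at 202.3 and 156.9 FPKM, the highest and the lowest of the 4 values, so the WT values lay inside the Tfam cKO range. The level of Epcam exceeded that of Cd24a in 3 of 4 libraries, by a ratio between 0.951 and 1.14, and the order of these neighbours was therefore within their spread.

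The macrophage and pan-leukocyte markers lay between 44.8 and 97.8 FPKM. Adgre1, which encodes the macrophage receptor F4/80, was listed at 91.5 and 80.7 FPKM in the WT libraries and 97.8 and 76.8 in the Tfam cKO libraries, with overlapping groups (log2 fold change 0.01, limma adjusted p = 0.996). Cd68, the heavily glycosylated LAMP-family protein of macrophage endosomes and lysosomes, was listed at 57.2 and 55.2 FPKM in the WT libraries and 69.3 and 69.9 in the Tfam cKO libraries. The Tfam cKO values both exceeded the WT values, and the groups were separated by more than the spread inside each. The log2 fold change was 0.30, with an interval of −0.08 to 0.69 (limma adjusted p = 0.87), and Cd68 did not pass the test. The values rest on 552 to 896 effective fragments per library, against 609 to 1491 for Ly75 and at least 1030 for the other members. Cufflinks' interval, which covers error within a library and not the spread between libraries, was 52.3 to 62.1 FPKM in WT 1 and 63.5 to 75.1 FPKM in Tfam cKO 1. Ptprc, which encodes the leukocyte phosphatase CD45, went the other way, at 61.4 and 59.9 FPKM in the WT libraries and 50.4 and 52.4 in the Tfam cKO libraries. Both Tfam cKO libraries were below both WT libraries (log2 fold change −0.23, interval −0.62 to 0.15, limma adjusted p = 0.90). The ratio of Cd68 to Ptprc within a library, a pair chosen after the opposite directions were seen, was 0.932 and 0.922 in the WT libraries and 1.37 and 1.34 in the Tfam cKO libraries. With the pair chosen in this way the ratio had to separate the groups, so it adds nothing to the values of the 2 genes. Rescaling to equal totals leaves this ratio as it is by construction. Quantile normalization gave 0.939 and 0.931 in the WT libraries and 1.38 and 1.34 in the Tfam cKO libraries. Sirpa, the inhibitory receptor that binds CD47 on other cells, was listed at 47.1 and 54.0 FPKM in the WT libraries and 49.3 and 44.8 in the Tfam cKO libraries, with overlapping groups (log2 fold change −0.10, limma adjusted p = 0.97). Its close relatives, named after their values were seen, hardly appeared: Sirpb1a and Gm9733 were listed at 0 in all 4 libraries and Sirpb1b reached 0.0215 FPKM in WT 2 and 0 elsewhere.

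The integrin alpha chains CD11b and CD11c pair with the shared beta chain CD18 to form complement receptors. Their genes, Itgam and Itgax, lie side by side on chromosome 7, at 135206154 to 135262005 and 135273082 to 135294171 in the coordinates of the tables. Itgax, for CD11c, was listed at 47.8 and 52.7 FPKM in the WT libraries and 43.9 and 41.0 in the Tfam cKO libraries, so that both Tfam cKO libraries were below both WT libraries (log2 fold change −0.24, interval −0.63 to 0.15, limma adjusted p = 0.90). Itgam, for CD11b, was listed at 22.3 and 18.3 FPKM in the WT libraries and 24.6 and 17.3 in the Tfam cKO libraries, with overlapping groups and a log2 fold change of 0.03. Itgax was above Itgam in 4 of 4 libraries, by 1.78 to 2.89 times. The ratio was 2.15 and 2.89 in the WT libraries and 1.78 and 2.37 in the Tfam cKO libraries, and the groups overlapped. Itgb2, for the beta chain CD18, was listed at 35.6 and 36.1 FPKM in the WT libraries and 39.0 and 30.6 in the Tfam cKO libraries. The other alpha chains that pair with it were low, Itgal at 2.53 to 4.34 FPKM and Itgad at 0.256 to 0.949 FPKM over the 4 libraries. Itgb2, Itgal and Itgad were named for this pairing after their values were seen.

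Ly75, which encodes DEC-205, an endocytic receptor of dendritic cells and of some epithelial cells, was the lowest of the 10. It was listed at 12.4 and 16.4 FPKM in the WT libraries and 10.4 and 11.6 in the Tfam cKO libraries. Both Tfam cKO libraries were below both WT libraries, while the WT libraries differed from each other by more than WT 1 differed from Tfam cKO 2. The log2 fold change was −0.35, with an interval from −0.77 to 0.07 (limma adjusted p = 0.86). It was −0.53 without WT 1 and −0.16 without WT 2. Ly75 had the largest coefficient of variation of the 10, at 20.3%, with Cd207 at 19.9%. The median over the 10 genes was 11.1%, against 12.9% for all genes with a mean of at least 10 FPKM.

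The mean levels gave the order Cd207, Epcam, Cd24a, Adgre1, Cd68, Ptprc, Sirpa, Itgax, Itgam and Ly75. Ranges over the 4 libraries did not overlap between Cd207 and Epcam, Cd24a and Adgre1, Adgre1 and Cd68, Itgax and Itgam, or Itgam and Ly75. They overlapped for the neighbours from Cd68 to Itgax and for Epcam with Cd24a. Ptprc was nevertheless above Sirpa in 4 of 4 libraries, by 1.02 to 1.30 times, while Cd68 was above Ptprc only in the 2 Tfam cKO libraries.

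None of the 10 genes passed limma's test between the genotypes, where 0.0183% of the 10910 tested genes did. None had an unadjusted p below 0.05 either, against 6.21% of all tested genes. With the replicate number of the libraries as a further term, again 0 of the 10 passed, where 1.69% of all tested genes did. With each library left out in turn 0 of the 10 passed as well, where the share of all tested genes was 0.147% without WT 1 or without WT 2, 0.752% without Tfam cKO 1 and 0.715% without Tfam cKO 2. The interval of Itgam, for example, ran from −0.45 to 0.51 on the log2 scale, so a missing call does not show equal expression. By position of the libraries alone, 3 of the 10 genes (Ly75, Itgax and Ptprc) were below WT in both Tfam cKO libraries, which held for 9.75% of all tested genes. Only Cd68 was above in both, which held for 25.4%. The median log2 fold change of the 10 genes was −0.07, and that of all tested genes 0.07.

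How many of the 10 separated the groups depended on the scaling. The deposited totals were 338783 to 369761 FPKM for WT and 375823 to 395707 FPKM for Tfam cKO, and rescaling to equal totals moved the median of all genes by −0.11. After that rescaling 6 of the 10 genes were lower in both Tfam cKO libraries, where 19.8% of all tested genes were, and 1 was higher, where 14.3% were. Cd207, at 5674 and 4412 TPM, the unit rescaled to equal totals, in the WT libraries and 3860 and 3656 TPM in the Tfam cKO libraries, Epcam and Sirpa joined Ly75, Itgax and Ptprc. Epcam was at 539.8 and 539.7 TPM in the WT libraries and at 486.3 and 477.8 TPM in the Tfam cKO libraries. Quantile normalization placed the same 6 genes lower and Cd68 higher, with 17.3% and 16.3% of all tested genes. The median log2 fold change of the 10 was −0.20 after rescaling, beside −0.04 for all tested genes, and −0.21 after quantile normalization, beside −0.01. None of the 10 passed the test under either scaling. Cd68 kept a positive value in all scalings, at 0.30, 0.18 and 0.19. The values of Itgam and Adgre1 changed sign, from 0.03 to −0.09 and from 0.01 to −0.11 on rescaling.

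**Figure D2:**
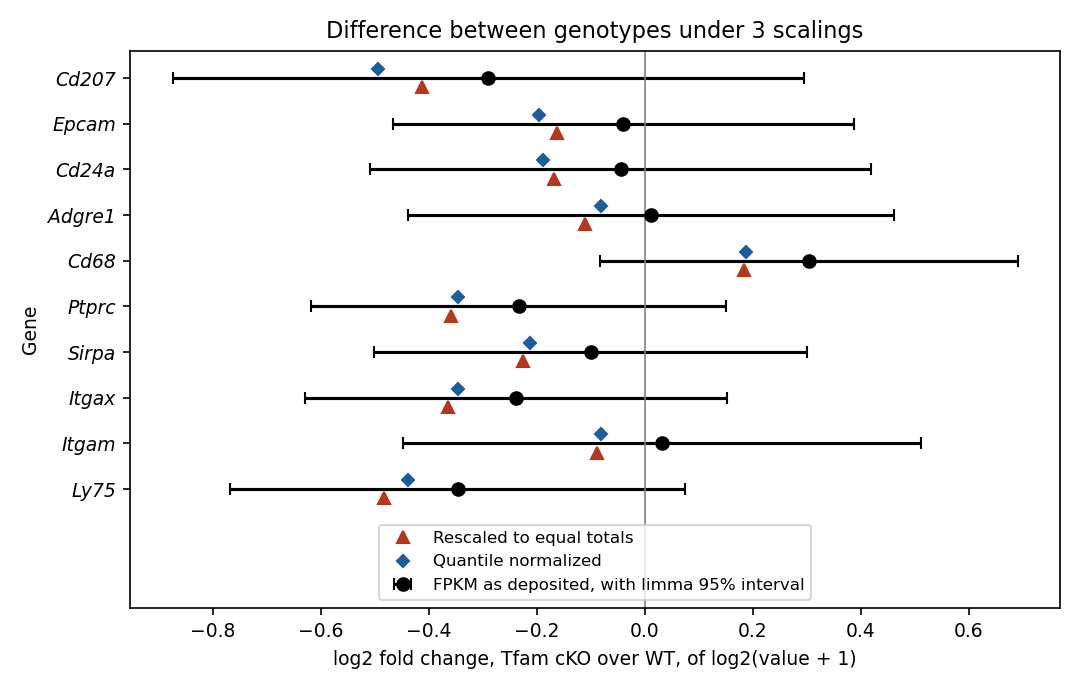
Log2 fold change of Tfam cKO over WT for each gene (horizontal axis), as deposited with limma's 95% interval (black), after rescaling to equal totals (red triangles) and after quantile normalization (blue diamonds). Every interval includes 0; Cd68 is the gene with a positive value under all 3 scalings, from 0.18 to 0.30, and Ly75 has the lowest value as deposited, −0.35.

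Differences inside the groups were often as large as those between them. In 5 of the 10 genes (Cd207, Epcam, Itgam, Adgre1 and Cd24a) library 1 was above library 2 in both WT and Tfam cKO, which held for 35.6% of all tested genes. Ly75 showed the reverse, which held for 20.6%. Inside WT, library 1 minus library 2 was 0.49 for Cd207 on the log2 scale, larger in size than the difference of −0.29 between the genotypes. Inside Tfam cKO it was 0.49 for Itgam, 0.34 for Adgre1 and 0.36 for Cd24a. In 7 of the 10 genes the lowest value was in Tfam cKO 2, as in 13.6% of all tested genes. The read depth relative to WT 1 was 1.37 for WT 2, 0.884 for Tfam cKO 1 and 1.56 for Tfam cKO 2, as recovered from genes with whole fragment numbers. Itgam, Adgre1 and Cd24a fell strictly in the order of that depth, from Tfam cKO 1 through WT 1 and WT 2 to Tfam cKO 2, as did 2.8% of all tested genes. After rescaling to equal totals only Itgam of the 10 kept that order, against 2.08% of all tested genes, while Adgre1 was at 247.5 TPM in WT 1 and 247.2 TPM in Tfam cKO 1 and Cd24a was highest in WT 2. On that scale library 1 was above library 2 in both groups for 4 of the 10 genes (Cd207, Epcam, Itgam and Adgre1), against 23% of all tested genes. The reverse held for 3 (Ly75, Ptprc and Cd68), against 32.7%, and the lowest value was in Tfam cKO 2 for 7, against 17.2%. These patterns were noticed after the values were seen, and the part of depth in them was not tested.

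**Figure D3:**
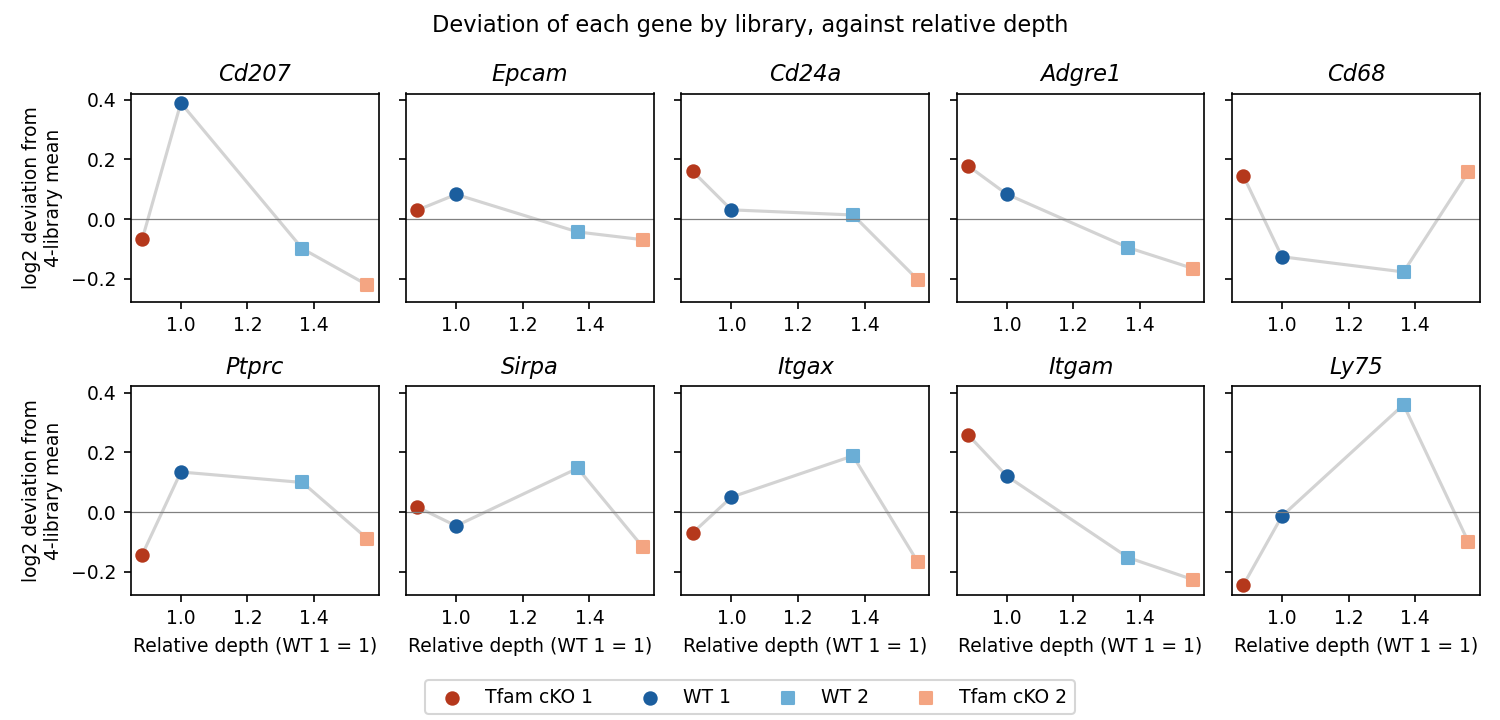
Deviation of each gene from its mean over the 4 libraries (vertical axis, log2 of FPKM + 1) against the relative read depth of the library (horizontal axis, WT 1 = 1). As deposited, Itgam, Adgre1 and Cd24a fall from the shallowest to the deepest library, which only Itgam does after rescaling to equal totals; Cd68 is high in both Tfam cKO libraries, and Ptprc is low in both.

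Binding partners and relatives of the 10 genes gave no call. Of 22 genes, 20 were tested, and 0 passed limma's test in either direction. At an unadjusted p below 0.05 the count was also 0, and the median log2 fold change was 0.07 as deposited and −0.05 after rescaling. Cldn1, a claudin that both keratinocytes and Langerhans cells carry, averaged 349 ± 52.8 FPKM (SD, n = 2) over the WT libraries and 360 ± 47.8 FPKM (SD, n = 2) over the Tfam cKO libraries. Ptpn6, for the phosphatase SHP-1 that SIRPα recruits, averaged 123 ± 10.5 and 110 ± 1.42 FPKM. Lamp1, a lysosomal relative of Cd68, averaged 92.5 ± 13.6 and 111 ± 12.2 FPKM. The ratio of Cd68 to Lamp1 was 0.560 and 0.666 in the WT libraries and 0.578 and 0.681 in the Tfam cKO libraries, and the groups overlapped. Adgre4, the F4/80 relative named after its values were seen, was listed at 25.1 and 15.5 FPKM in the WT libraries and 18.6 and 12.4 in the Tfam cKO libraries.

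Other genes of Langerhans cells and of dendritic cell maturation were not called either. Of 18 further Langerhans cell genes, 16 were tested and 0 passed. At an unadjusted p below 0.05, 1 was higher, as were 547 of all 10910 tested genes. The median log2 fold change of the 16 was 0.03 as deposited and −0.09 after rescaling. Cd74, the invariant chain of MHC class II, averaged 9824 ± 757 FPKM (SD, n = 2) over the WT libraries and 10802 ± 2176 FPKM (SD, n = 2) over the Tfam cKO libraries. H2-Ab1, H2-Aa and H2-Eb1, which encode MHC class II chains, averaged 6596 ± 154, 4296 ± 198 and 4014 ± 265 FPKM in WT, and 6220 ± 1178, 4175 ± 571 and 3623 ± 307 FPKM in Tfam cKO. Each of these 4 genes was above Cd207 in all libraries. Of 12 maturation genes, 9 were tested and 0 passed, with 1 higher and 2 lower at an unadjusted p below 0.05. Of all tested genes, 6.21% had a p that low in either direction. Their median log2 fold change was 0.02 as deposited and −0.11 after rescaling. Cd83, a surface protein of mature dendritic cells, averaged 354 ± 49.8 and 366 ± 116 FPKM, and Marcksl1, a cytoskeletal regulator, 132 ± 3.72 and 127 ± 38.5 FPKM. The 3 maturation genes with an unadjusted p below 0.05 are named for it after their values were seen. Ccr7, for the receptor of the chemokines that attract migrating dendritic cells, was listed at 6.57 and 9.67 FPKM in the WT libraries and 3.23 and 4.16 in the Tfam cKO libraries (log2 fold change −0.94, limma adjusted p = 0.42). Ccl22, a chemokine gene, was at 16.2 and 46.3 FPKM in the WT libraries and 7.45 and 9.08 in the Tfam cKO libraries (log2 fold change −1.63, limma adjusted p = 0.46). Both were below WT in both Tfam cKO libraries, as were 9.75% of all tested genes. Cd40, a costimulatory receptor gene, was above WT in both, as were 25.4% of all tested genes. Its values were 11.5 and 12.8 FPKM in the WT libraries and 16.1 and 16.6 in the Tfam cKO libraries (log2 fold change 0.40, limma adjusted p = 0.78).

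Transcripts of keratinocytes were abundant in the sorted cells, which bears on Epcam and Cd24a because epithelium can express both. The 15 keratinocyte markers together took 4.45% and 3.36% of all FPKM in the WT libraries and 4.14% and 4.04% in the Tfam cKO libraries. The 10 surface identity genes took 0.763% and 0.649% in the WT libraries and 0.573% and 0.539% in the Tfam cKO libraries. Krt5 and Krt14, the keratins of basal keratinocytes, averaged 3800 ± 1128 and 2950 ± 832 FPKM over the WT libraries and 4147 ± 471 and 3426 ± 228 FPKM over the Tfam cKO libraries (SD, n = 2 each), above Cd207 in each library. The keratinocyte list had a median log2 fold change of 0.16 as deposited, 0.04 after rescaling and 0.07 after quantile normalization. Of its 15 genes, 0 passed limma's test and 1 was higher at an unadjusted p below 0.05, as were 547 of all 10910 tested genes. The part of keratinocyte transcripts in the levels of Epcam and Cd24a was not tested.

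T cell transcripts were present as well, which bears on Ptprc, since T cells carry CD45. The 9 T cell markers found summed to 296 and 349 FPKM in WT and to 220 and 334 FPKM in Tfam cKO, so Tfam cKO 1 was lowest and Tfam cKO 2 was within the WT range. Cd3g, a chain of the T cell receptor complex, was listed at 79.2 and 85.1 FPKM in the WT libraries and 36.9 and 70.1 in the Tfam cKO libraries, and Thy1 at 65.6 to 67.0 FPKM in all libraries. Of the 9 tested T cell markers 0 passed limma's test, and 1, Cd3g, was lower at an unadjusted p below 0.05. Of all 10910 tested genes, 130 were lower at such a p. Il2rb and Thy1 had positive log2 fold changes, 0.20 and 0.02, and the other T cell markers negative ones. The median log2 fold change of the list was −0.25 as deposited and −0.37 after rescaling, beside −0.23 and −0.36 for Ptprc. Fewer cells of a type and less RNA per cell cannot be told apart in such pooled samples. The part of T cells in the lower Ptprc values was not tested.

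The summed level of macrophage markers was higher in both Tfam cKO libraries, as was Cd68, and the difference in the sum lay in the complement C1q genes. The 13 macrophage markers summed to 74.1 and 61.5 FPKM in WT and to 170 and 114 FPKM in Tfam cKO, of which C1qa, a complement C1q chain, made 22.1 and 29.3 FPKM in the WT libraries and 88.5 and 55.2 in the Tfam cKO libraries. Cbr2, a carbonyl reductase gene, was at 47.5 and 26.0 FPKM in the WT libraries and 41.1 and 38.9 in the Tfam cKO libraries. The tissue macrophage markers Cd163, Folr2, Fcgr1 and Vsig4 were listed at 0 in all 4 libraries. Of the 4 macrophage markers tested, 0 passed limma's test and 3 were higher at an unadjusted p below 0.05. These 3 were the C1q genes C1qa, C1qb and C1qc (log2 fold change 1.42, 2.10 and 2.07). Over all tested genes, 6.21% had such a p in either direction. Cbr2, the remaining tested marker, had overlapping groups. The median log2 fold change of the 4 was 1.75 as deposited and 1.76 after rescaling, which thus rests on the C1q genes. The part of macrophage transcripts in the Cd68 values was not tested. Of the 8 markers of dermal dendritic cells, Itgae, for the integrin CD103, and Mgl2, a C-type lectin, were highest, and the list summed to 21.2 to 30.7 FPKM. The markers below the filter were low in all libraries. Their highest values were 0.156 FPKM for Xcr1, 0.0543 for Clec9a, 0.257 for Clec10a and 1.01 for Cd209a. Itgae was listed at 7.76 and 11.2 FPKM in the WT libraries and 6.51 and 11.0 in the Tfam cKO libraries, with overlapping groups. The summed T cell markers had the same order of libraries, and the part of T cells in the Itgae values was not tested. Mgl2 was at 5.15 and 5.02 FPKM in the WT libraries and 13.02 and 10.61 in the Tfam cKO libraries, higher in both (log2 fold change 1.07, limma adjusted p = 0.15). Such a position of the libraries held for 25.4% of all tested genes. Of the 4 dermal dendritic cell markers tested 0 passed limma's test, and 2, Mgl2 and the cytokine receptor gene Flt3, were higher at an unadjusted p below 0.05. The other tested markers, Itgae and Zbtb46, had log2 fold changes of −0.12 and −0.05. The median of the 4 tested markers was 0.22 as deposited and 0.14 after rescaling. The lists of monocyte, neutrophil, mast cell, melanocyte, fibroblast, endothelial and B cell markers each summed to at most 5.40 FPKM in any library.

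**Figure D4:**
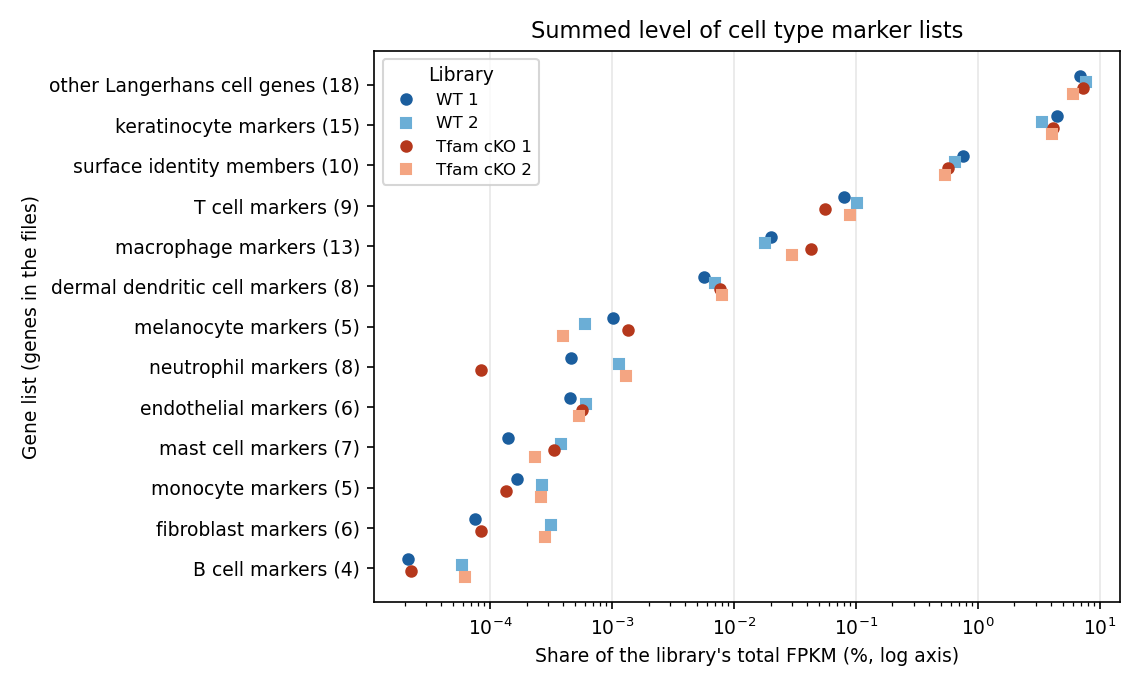
Summed level of each marker list as a share of the total FPKM of the library (percent, log axis), with 1 symbol per library and the number of genes found for each list in parentheses. Keratinocyte markers, at 3.36% to 4.45%, exceed the 10 surface identity genes, at 0.539% to 0.763%, and the lists from melanocytes to B cells lie at the bottom.

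Genes whose profile lay closest to that of Cd207 were sought among 1042 other genes with a mean of at least 50 FPKM, by the Euclidean distance of centred log2 values over 4 libraries. The 5 nearest were Prpf38b, a splicing factor gene, Cyb5a, for cytochrome b5, Atpif1, for the inhibitor of the mitochondrial ATP synthase, Tbcb, a tubulin chaperone gene, and Cox7b, for a subunit of cytochrome c oxidase. Their distances were 0.0602, 0.0913, 0.118, 0.152 and 0.168. Each had its highest value in WT 1, as Cd207 did. Prpf38b was at 77.6 and 55.2 FPKM in the WT libraries and 58.2 and 53.1 in the Tfam cKO libraries. With 4 libraries such likeness is a description only.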

How the data were processed

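Langerhans cells from 2 WT and 2 Tfam cKO libraries were profiled by RNA sequencing. The authors deposited FPKM per gene with Cufflinks' 95% interval, per the file headers. Per the submitters' processing notes, CASAVA, Cufflinks and mm10 were used, with no version stated. The aligner is not given in the sources used here. Positions in the tables overlapped the GENCODE M21 (GRCm38) gene of the same name for 11.2% of 24433 rows and for 0 of the 10 members. They are printed as the tables have them, 1-based, with the build unresolved. Each table held 24994 rows for 24441 symbols, and loci of 1 symbol were summed.

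The test covered 10910 symbols whose mean reached 1 FPKM, as log2(FPKM + 1), which understates changes of low genes. limma 3.58.1 in R 4.3.3 compared Tfam cKO with WT, with genotype as the only term, mean-trended moderated variances and two-sided Benjamini-Hochberg adjustment at 0.05. It was also run on simulated data with larger changes than the members had. That run does not show whether changes of the members' size would be called. SE and intervals are limma's. The tables record no read depth. Effective fragment numbers were computed from the width of Cufflinks' interval, and relative depth from 74 of 9593 genes whose numbers were whole within 0.02 in all libraries. Cufflinks' interval covers error within a library and not the spread between libraries. Figures used matplotlib 3.10.9 under Python 3.11.15.

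The members and the gene lists were chosen with earlier results of these data known. The text names the members, Tfam, up to 4 genes of highest level in the partner and Langerhans cell lists, up to 2 in each other list it describes, and the 5 genes nearest to Cd207. Outside this rule, and with their values known, it also names relatives of members (Itgb2, Itgal, Itgad, Sirpb1a, Sirpb1b, Gm9733, Adgre4) and macrophage markers listed at 0 (Cd163, Folr2, Fcgr1, Vsig4). Named in the same way are dermal dendritic cell markers that were low or not higher (Xcr1, Clec9a, Clec10a, Cd209a, Zbtb46) and the T cell marker Il2rb. The same holds for genes with an unadjusted p below 0.05 in the maturation, dermal dendritic cell and macrophage lists (Ccr7, Ccl22, Cd40, Flt3, C1qb, C1qc). A gene of the partner list is not reported here and was left out of that list. Alternatives were other scalings, filters, pseudocounts, variance models, the replicate number as a term, the highest locus, and leaving out each library.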

Additional observations from a re-analysis of the deposited data

How the results depend on the processing

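The count of members past the limma threshold was 0 in all 15 fits, including those with each library left out and that with the replicate number as a term (replicate block). Values under the alternatives, as log2 fold changes, spanned −0.53 to −0.05 for Cd207, from −0.20 to 0.02 for Epcam, from −0.53 to −0.16 for Ly75, from −0.36 to −0.17 for Itgax, from −0.21 to 0.28 for Itgam, from −0.16 to 0.19 for Adgre1, from −0.23 to 0.14 for Cd24a, from −0.23 to −0.0037 for Sirpa, from −0.36 to −0.21 for Ptprc and from 0.18 to 0.33 for Cd68. The sign turned for Itgam and Adgre1 after quantile normalization (−0.0803 and −0.0801) and rescaling to equal totals (−0.089 and −0.111), without WT replicate 2 (−0.105 and −0.0774) and without Tfam cKO replicate 1 (−0.211 and −0.16). It turned for Epcam without WT replicate 1 (0.0237) and without Tfam cKO replicate 2 (0.0103), with −0.102 as the lowest value with a library left out, and for Cd24a without Tfam cKO replicate 2 (0.138). The cause was not tested.

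The labels give no shared origin to libraries of the same number. The correlation of their deviations over genes was 0.255. With the replicate block, 184 of 10910 genes passed against 2, among them 3 macrophage markers, 2 maturation genes, 1 dermal dendritic cell marker and 0 members. Fits that leave out a library assume that the single one left in its group varies as the others do, and in them 1 to 3 macrophage markers, 0 to 2 maturation genes and 0 to 1 keratinocyte, T cell and dermal dendritic cell markers passed. Over all tested genes, 0.147% passed without WT replicate 1 and likewise without WT replicate 2, 0.752% without Tfam cKO replicate 1 and 0.715% without Tfam cKO replicate 2. The lists of partners and of other Langerhans cell genes kept counts of 0 under the alternatives. With 2 libraries per group, the member with the narrowest interval, Ptprc, still spans folds from 0.652 to 1.11.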
